A study of Mus musculus with 21 samples.

Results

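The 10 antioxidant defence genes described here are *Sod1*, *Sod2*, *Sod3*, *Cat*, *Gpx1*, *Gpx3*, *Prdx3*, *Txnrd2*, *Nqo1* and *Hmox1*. The choice was by name, with earlier results of these data known. The 10 genes were each matched by symbol to 1 Ensembl identifier of the deposited table, which holds 46517 genes. They were measured by bulk RNA-sequencing of polyadenylated RNA from frozen left ventricle of 4 control (*Notch3* +/+) and 3 *Notch3*-/- mice, 10 to 14 months old. All were on the C57BL/6J background, a strain known to carry a deletion in *Nnt*, the gene of an NADPH-producing enzyme of mitochondria, which counts per gene cannot show. The *Notch3*-/- allele is germline and so not limited to a cell type, no treatment was given, and the sex of the mice is not stated. Each mouse gave 3 technical libraries, and their sum stands for the mouse, the unit of replication. Summed totals were 3091461, 4638786, 4208205 and 3046326 counts for control mice 1 to 4 and 3828763, 5167869 and 5086740 counts for *Notch3*-/- mice 1 to 3. All 10 genes passed the filter on low counts, by which 14324 genes were tested.

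Antioxidant enzymes remove the superoxide and peroxides that respiring cells make. Superoxide dismutases turn superoxide into hydrogen peroxide, and catalase, glutathione peroxidases and peroxiredoxins then reduce the peroxide, drawing on glutathione, thioredoxin and NADPH. The heart, whose cardiomyocytes are dense in mitochondria, relies much on the mitochondrial enzymes of this system, while NRF2, a transcription factor set free from KEAP1 under oxidative stress, drives genes such as *Nqo1* and *Hmox1* through the antioxidant response element.

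The targeted gene checks the labels. *Notch3* counts were 174, 200, 245 and 185 over the control mice and 22, 36 and 25 over the *Notch3*-/- mice, and the genotypes did not overlap. At a log2 fold change of -3.16 (SE 0.23), *Notch3* passed edgeR's quasi-likelihood F-test (FDR 0.00173, Benjamini-Hochberg adjustment over all genes tested). *Gm17276*, an antisense gene that shares 488 exon bases with *Notch3*, had 16 to 30 counts in control mice and 2 to 5 in *Notch3*-/- mice. The strand used in counting is not stated, so reads of this pair cannot be told apart.

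A pair of hearts stood apart in markers of liver cells, and their values are given here because *Gpx1*, *Cat*, *Gpx3* and *Nqo1* set the same hearts apart. Many other genes did as well, since 24.4% of all genes tested did not overlap between these 2 hearts and the control hearts. The list of 22 hepatocyte markers, genes of secreted plasma proteins and liver enzymes, summed to 119, 247, 73.2 and 103 CPM in control mice 1 to 4 (CPM being counts scaled by TMM to a common library total). In *Notch3*-/- mice 1 to 3 the sums were 8569, 15480 and 240 CPM, so that *Notch3*-/- mice 1 and 2 were far above every other mouse and *Notch3*-/- mouse 3 was level with control mouse 2. All 22 markers were higher in *Notch3*-/- hearts at an unadjusted p under 0.05 by edgeR, which called none of them with all 7 mice and the filter on low counts. EdgeR on every gene with at least 1 count called all 22, as did edgeR without *Notch3*-/- mouse 3 and DESeq2, and limma-voom called 2. The most abundant in *Notch3*-/- hearts was *Alb*, the gene of albumin, at 1705, 1875 and 66.9 CPM against 2.35 to 81.1 CPM in control mice. In control hearts the most abundant was *Vtn*, the gene of vitronectin, at 58.9 ± 7.40 CPM (SD, n = 4). Of the 22 genes 2, 6 and 5 had 0 counts in control mice 1, 3 and 4, and none had 0 counts in control mouse 2 or in a *Notch3*-/- mouse. Cardiomyocyte genes were abundant in each heart, with 22970 to 31620 CPM summed over 10 genes in control mice and 20730 to 31210 CPM in *Notch3*-/- mice.

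The comparison of genotypes asks which antioxidant genes differ in hearts that lack *Notch3*. *Gpx1* and *Cat* were higher in *Notch3*-/- mice 1 and 2 and *Gpx3* and *Nqo1* lower, while *Prdx3* was lower in all 3 *Notch3*-/- mice. In bulk tissue a change in the cells present and a change in RNA per cell cannot be told apart. None of the 10 genes was called between genotypes, a call being an FDR under 0.05 and a fold change of at least 1.5. With edgeR's quasi-likelihood test the call rate over all genes tested was 0.00698%, which is *Notch3* alone. At an unadjusted p under 0.05, *Gpx1* and *Cat* were higher (2 of 10, where 7.34% of all genes tested were) and *Gpx3* and *Prdx3* were lower (2 of 10, against 3.05%). The mice of the 2 genotypes did not overlap for 1 of the 10, *Prdx3*, which was lower (against 3.96% of all genes), and for none that was higher (4.57%). Other fits called *Gpx1* and no other of the 10. These were DESeq2 (FDR 0.0432), whose call rate was 3.43%, edgeR on every gene with at least 1 count (FDR 0.0116), with a call rate of 2.22%, and limma-voom on the 21 libraries (FDR 0.0303), with a call rate of 0.581%, each with Benjamini-Hochberg adjustment. Limma-voom took a correlation of 0.152 between libraries of a mouse for all genes. *Gpx1* libraries had 74.3 to 79.1 CPM in *Notch3*-/- mouse 3 and 186 to 348 in mice 1 and 2. The limma-voom FDR of *Gpx1* thus rests in part on technical libraries. The median log2 fold change of the 10 genes was -0.11, beside -0.003 for all genes tested, with 4 positive and 6 negative values. No test was made over the list, whose genes were chosen with earlier results of these data known.

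**Figure D1:**
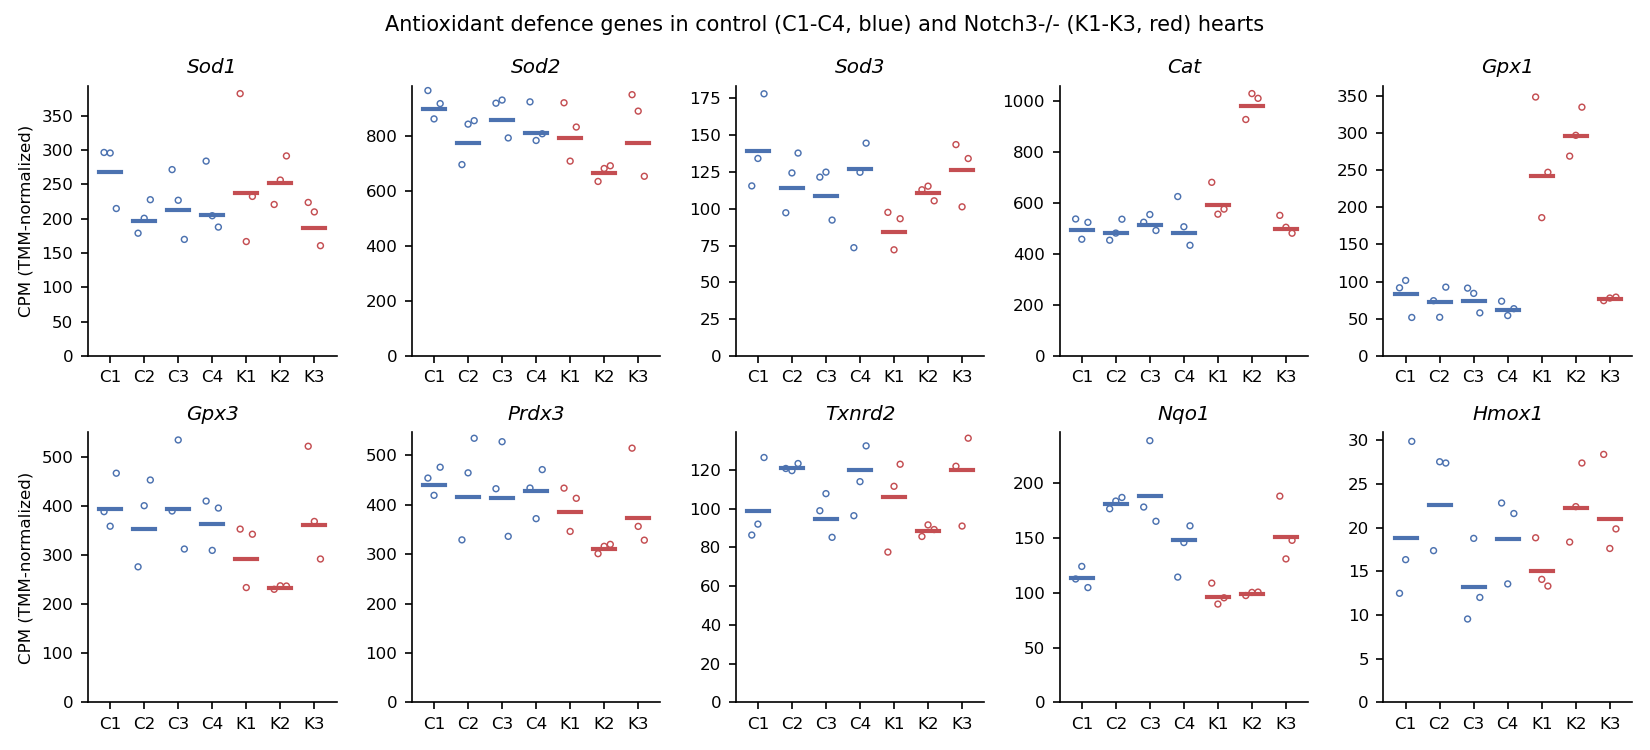
TMM-normalized CPM of the 10 genes in control mice (C1 to C4) and *Notch3*-/- mice (K1 to K3); bars are the summed libraries of a mouse and circles its 3 technical libraries. *Gpx1* stood at 242 and 296 CPM in K1 and K2 and at 76.8 in K3, within the control range of 61.1 to 82.6.

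*Gpx1* (ENSMUSG00000063856, chromosome 9 from 108338903 to 108340343, plus strand, GRCm38 as annotated by GENCODE vM21), the cytosolic selenium-dependent glutathione peroxidase, had the largest fold change of the 10 genes. Its counts were 251, 345, 314 and 183 over the control mice and 885, 1409 and 406 over the *Notch3*-/- mice. After TMM normalization this was 72.6 ± 8.84 CPM (SD, n = 4) in control hearts and 205 ± 114 CPM (SD, n = 3) in *Notch3*-/- hearts. *Notch3*-/- mice 1 and 2 reached 3.33 and 4.08 times the control mean, while *Notch3*-/- mouse 3 stood at 1.06 times, within the control range. The separation was seen in each library, with 186 to 348 CPM in those of mouse 1, 269 to 335 in those of mouse 2 and 51.7 to 102 in the control libraries. The fold change was 2.82, with an SE of 0.36 on the log2 scale, and edgeR's quasi-likelihood F-test left it uncalled (FDR 0.170, Benjamini-Hochberg). Once *Notch3*-/- mouse 3 was left out, the log2 value was 1.88 and that edgeR test called *Gpx1* (FDR 4.87e-05, Benjamini-Hochberg), in a fit where 6.02% of genes were called as higher. Without *Notch3*-/- mice 1 and 2 it was 0.08, with 1 *Notch3*-/- mouse assumed to vary like the control mice.

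*Cat* (ENSMUSG00000027187, minus strand of chromosome 2 from 103453849 to 103485160) encodes catalase, the peroxisomal enzyme that breaks down hydrogen peroxide. Control mice 1 to 4 had 494, 480, 513 and 483 CPM, a narrow range with a mean of 493 ± 14.8 (SD, n = 4). In *Notch3*-/- mice 1 to 3 it had 590, 980 and 497 CPM, so that mice 1 and 2 lay above the control mice and mouse 3 among them. Over all mice *Cat* had a log2 fold change of 0.48 (SE 0.20, edgeR FDR 0.445, Benjamini-Hochberg), against 0.67 without *Notch3*-/- mouse 3, 0.14 without mouse 2 and 0.01 without mice 1 and 2. *Notch3*-/- mouse 2, whose libraries had 926 to 1027 CPM, stood apart most. Libraries of *Notch3*-/- mouse 1, at 555 to 680 CPM, overlapped the control libraries, at 433 to 624.

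*Gpx3* and *Prdx3* had the opposite sign. *Gpx3* (ENSMUSG00000018339, plus strand of chromosome 11 from 54902453 to 54910377), the secreted glutathione peroxidase of plasma, had 395, 353, 395 and 365 CPM in control mice 1 to 4 and 292, 234 and 361 CPM in *Notch3*-/- mice 1 to 3. *Notch3*-/- mice 1 and 2 lay below all control mice and mouse 3 did not. Among single libraries, those of *Notch3*-/- mouse 1 (234 to 354 CPM) overlapped the control libraries (277 to 536). *Gpx3* had a log2 fold change of -0.35 (SE 0.15, edgeR FDR 0.456, Benjamini-Hochberg), and of -0.06 without *Notch3*-/- mice 1 and 2. It was -0.20 without *Notch3*-/- mouse 2, -0.52 without *Notch3*-/- mouse 3 and 0.01, with the sign turned, in technical library 1 alone. *Prdx3* (ENSMUSG00000024997, minus strand of chromosome 19 from 60864051 to 60874556), the peroxiredoxin of mitochondria, stood at 440, 415, 414 and 427 CPM in control hearts, and at 385, 310 and 374 CPM in *Notch3*-/- hearts. All 3 *Notch3*-/- mice lay below the control range. For *Prdx3* the log2 fold change came to -0.25 (SE 0.11, edgeR FDR 0.470, Benjamini-Hochberg) and -0.18 without *Notch3*-/- mice 1 and 2, and it was -0.16 without *Notch3*-/- mouse 2 alone. In technical library 1 alone it was 0.02, with the sign turned. Single libraries overlapped, from 329 to 534 CPM in control mice and from 301 to 514 CPM in *Notch3*-/- mice.

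The 3 superoxide dismutases overlapped between genotypes, each with 1 *Notch3*-/- mouse below all control mice. *Sod1* (ENSMUSG00000022982, chromosome 16 from 90220754 to 90226329), the copper-zinc enzyme of the cytosol, was at 221 ± 32.6 CPM (SD, n = 4) in control and 225 ± 34.9 CPM (SD, n = 3) in *Notch3*-/- hearts. *Sod2* (ENSMUSG00000006818, chromosome 17 from 13006846 to 13040063), the manganese enzyme of mitochondria, had 837 ± 54.6 CPM (SD, n = 4) and 745 ± 69.4 CPM (SD, n = 3). For *Sod3* (ENSMUSG00000072941, chromosome 5 from 52363791 to 52371418), the extracellular enzyme, the values were 122 ± 13.5 CPM (SD, n = 4) and 107 ± 21.5 CPM (SD, n = 3). The log2 fold changes were 0.03 (SE 0.15), -0.17 (SE 0.10) and -0.19 (SE 0.17) for *Sod1*, *Sod2* and *Sod3*, with edgeR FDR values of 0.971, 0.600 and 0.737 after Benjamini-Hochberg adjustment. *Scaf4* overlaps the *Sod1* gene on the opposite strand without a shared exon base, with 125 to 178 counts in control mice and 132 to 183 in *Notch3*-/- mice.

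*Txnrd2* (ENSMUSG00000075704, chromosome 16 from 18426384 to 18479073), the mitochondrial thioredoxin reductase that renews the thioredoxin on which *Prdx3* depends, had 109 ± 13.9 CPM (SD, n = 4) in control and 105 ± 15.8 CPM (SD, n = 3) in *Notch3*-/- hearts (log2 fold change -0.05, SE 0.16).

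Of the NRF2 targets, *Nqo1* (ENSMUSG00000003849, chromosome 8 from 107388225 to 107403206), a quinone reductase, had 113, 181, 188 and 148 CPM in control mice 1 to 4 and 95.6, 98.9 and 151 CPM in *Notch3*-/- mice 1 to 3. *Notch3*-/- mice 1 and 2 lay below the control range and mouse 3 within it. By single library, *Notch3*-/- mouse 1 (89.6 to 109 CPM) overlapped the control libraries (105 to 238). *Nqo1* had a log2 fold change of -0.45 (SE 0.22, edgeR FDR 0.507, Benjamini-Hochberg), and of -0.70 without *Notch3*-/- mouse 3 and -0.07 without mice 1 and 2. *Hmox1* (ENSMUSG00000005413, chromosome 8 from 75093621 to 75100589), which encodes the heme-degrading enzyme heme oxygenase 1, was the lowest of the 10 genes per kb of exon, with 56 to 107 counts in control mice and 55 to 111 in *Notch3*-/- mice, and a log2 fold change of 0.09 (SE 0.24).

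**Figure D2:**
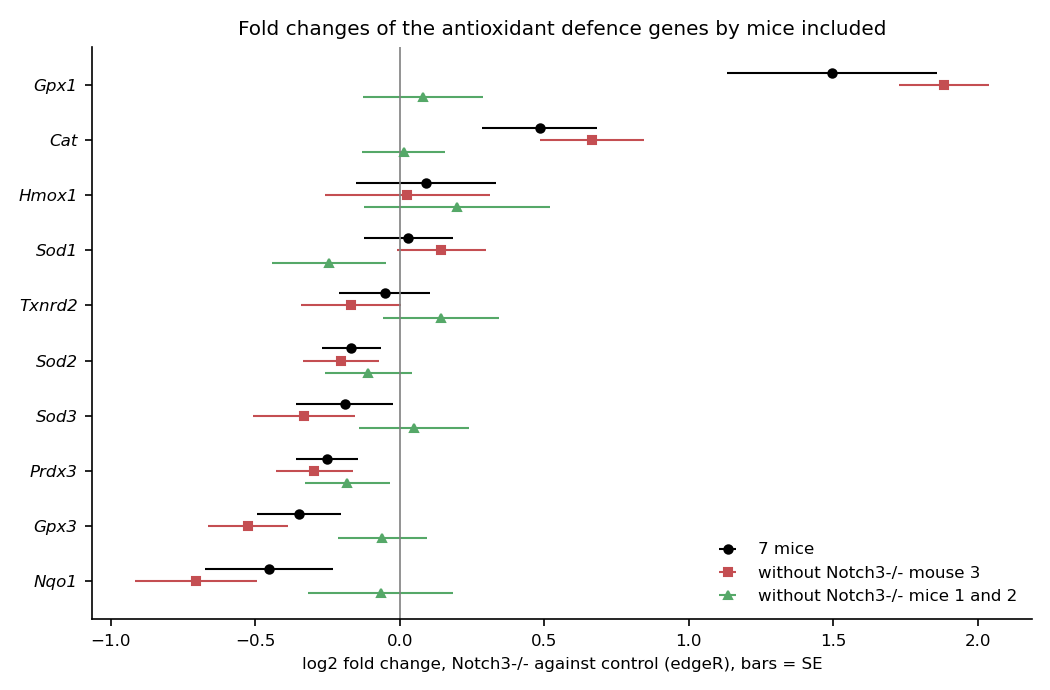
Log2 fold change of *Notch3*-/- against control hearts for each of the 10 genes (points, edgeR) with its SE (bars), with all 7 mice, without *Notch3*-/- mouse 3 and without *Notch3*-/- mice 1 and 2. *Gpx1* ran from 0.08 to 1.88 over these 3 fits, while *Prdx3* lay between -0.30 and -0.18.

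Of the 10 genes, 4 set the hearts with high hepatocyte markers apart. Once *Notch3*-/- mouse 3 was left out, 5 of the 10, *Prdx3* among them, did not overlap between genotypes. So did 24.4% of all genes tested. *Notch3*-/- mice 1 and 2, high in those markers, were also above the control mice in *Gpx1* and *Cat* and below them in *Gpx3* and *Nqo1*. *Notch3*-/- mouse 3 lay within the control range for all 4 of these genes. *Prdx3* was lower in *Notch3*-/- mouse 3 as well. A fit with the hepatocyte level as a covariate leaves the genotype term to rest chiefly on *Notch3*-/- mouse 3, since the level nearly separates *Notch3*-/- mice 1 and 2 from the others. It gave log2 fold changes of -0.23 (SE 0.31) for *Gpx1*, -0.13 (SE 0.27) for *Cat*, 0.07 (SE 0.20) for *Gpx3*, -0.14 (SE 0.20) for *Prdx3* and -0.01 (SE 0.30) for *Nqo1*, each within its SE of 0, and it called 0 genes, *Notch3* included. None of the 10 genes had an unadjusted p under 0.05 in that edgeR fit, where 4.37% of all genes did, or in the fit without *Notch3*-/- mice 1 and 2, where 5.16% did, so that 0 of 10 is near the background in both. The part of the liver markers in the fold changes was not tested.

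**Figure D3:**
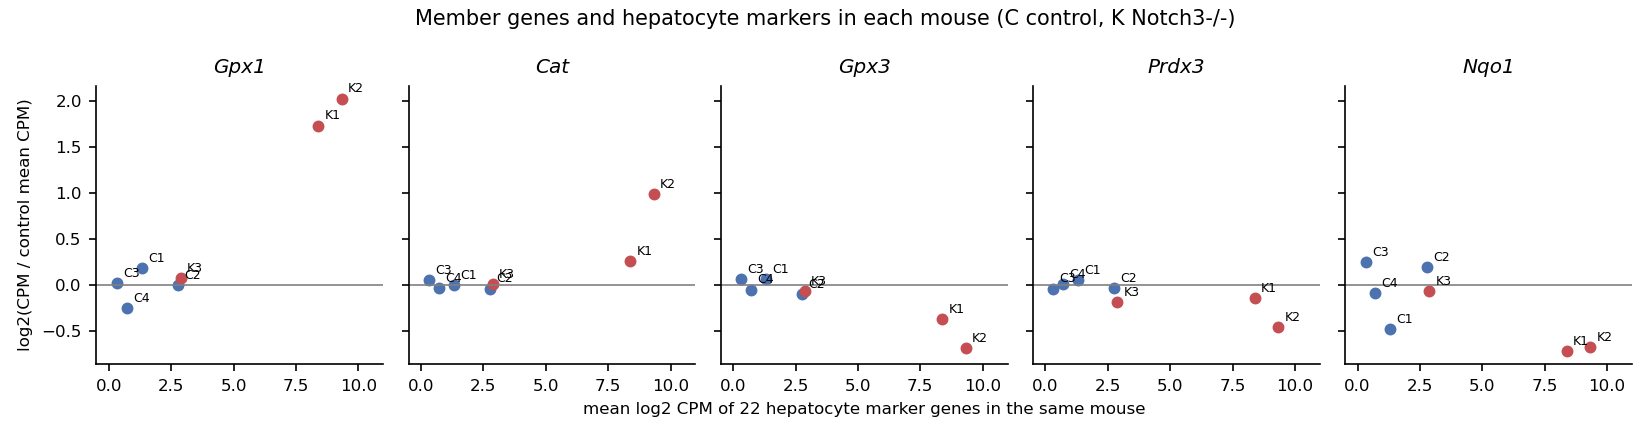
Log2 ratio of a mouse's CPM to the control mean for 5 of the genes (vertical axis) against the mean log2 CPM of 22 hepatocyte marker genes in the same mouse (horizontal axis); C marks control and K *Notch3*-/- mice. K1 and K2, at hepatocyte levels of 8.38 and 9.33, stood apart from the other mice, which lay between 0.32 and 2.88.

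Markers of the other cell types had list medians closer to 0, and edgeR with all 7 mice and the filter on low counts called none of them. *Myh11*, of smooth muscle, was called as lower by DESeq2, limma-voom, edgeR on every gene and edgeR without *Notch3*-/- mouse 3. Its log2 fold change was -2.49 (SE 0.45, edgeR FDR 0.118, Benjamini-Hochberg), with all *Notch3*-/- mice below all control mice. DESeq2 called *Col1a1*, of fibroblasts, as higher, and the other fits just named did not. This pair was chosen after its values were seen. The 10 cardiomyocyte genes, led by *Ttn*, all had negative log2 fold changes, with a median of -0.24, and none had an unadjusted p under 0.05. The vascular smooth muscle list, led by *Smtn*, had a median of -0.13, with 2 of 6 tested genes lower at an unadjusted p under 0.05. For the endothelial list, led by *Kdr*, it was 0.08, with 0 of 7 genes under that p, and for the macrophage list, led by *Lyz2*, it was 0.15, with 1 of 8 genes higher. The fibroblast list, led by *Dcn*, had a median of 0.07, with 2 genes higher and 1 lower at an unadjusted p under 0.05. The erythroid list, led by *Hbb-bs*, had one of -0.48, with 2 of 5 tested genes lower at that threshold. No adipocyte gene passed the filter on low counts, and the summed list reached 21.03 CPM at most, in *Notch3*-/- mouse 2. *Cidec* led it in *Notch3*-/- hearts and *Lep* in control hearts.

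Levels between the genes were compared as CPM per kb of exon. In control hearts the order was led by *Prdx3* at 287 ± 8.30 CPM per kb (SD, n = 4), followed by *Gpx3* at 208 ± 11.7 (SD, n = 4) and *Cat* at 188.5 ± 5.67 (SD, n = 4), of which the last pair overlapped between mice. *Nqo1* (101 CPM per kb) and *Sod2* (83.6) overlapped, as did *Sod1* (55.6) and *Gpx1* (50.4). *Sod3* (32.7), *Txnrd2* (24.7) and *Hmox1* (10.45) closed the order, and neither of these neighbouring pairs overlapped. The place of *Sod1* depends on its length. Over the 641 bases of its principal transcript, in place of the 3970 bases of all annotated exons, it was first at 344.5 ± 50.8 CPM per kb (SD, n = 4), a length chosen after the data were seen. With that length or the longest transcript, *Sod2*, at 142.8, stood above *Nqo1*, and *Txnrd2*, at 37.8, above *Sod3*, the last pair with overlapping mice. With the longest transcript *Gpx1*, at 67.7, stood above *Sod1*, at 55.6, again with overlapping mice. Across the 21 libraries the highest value of any gene with 200 or more exon bases was 1.97 counts per base. The highest library of *Sod1* had 0.669 counts per base of its principal transcript, that of *Cat* 0.637 and that of *Prdx3* 0.593, all below that maximum.

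Promoter sequence is shown for *Sod1*, the one gene of the 10 with a match to the core of the antioxidant response element in its window, for *Nqo1*, known for such an element, and for *Cat* and *Gpx1*, which had positive fold changes in the same mice. RefSeq GRCm38.p6 windows of 250 bases before to 50 bases after the start site were found for 8 of the 10 genes, and there was none for *Sod3* and *Hmox1*. They were searched on both strands for TGACNNNGC (the core), GGGCGG (the GC box), CCAAT (the CCAAT box) and TATAAA (the TATA box). Of 32851 such windows in the genome, 12.4% held the core, 35.7% the GC box, 37.4% the CCAAT box and 13.6% the TATA box. The part of each window before the first annotated exon base is given 5′ to 3′ on the strand of the gene, with matches in capitals, for chr16:90220512-90220753 (plus strand), chr8:107403207-107403455 (minus strand), chr2:103485161-103485403 (minus strand) and chr9:108338830-108338902 (plus strand).
Sod1: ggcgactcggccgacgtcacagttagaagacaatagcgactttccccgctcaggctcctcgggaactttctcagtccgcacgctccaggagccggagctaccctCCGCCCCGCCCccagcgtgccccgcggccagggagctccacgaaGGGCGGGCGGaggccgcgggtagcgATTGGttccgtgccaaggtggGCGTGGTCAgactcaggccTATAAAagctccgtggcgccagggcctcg
Nqo1: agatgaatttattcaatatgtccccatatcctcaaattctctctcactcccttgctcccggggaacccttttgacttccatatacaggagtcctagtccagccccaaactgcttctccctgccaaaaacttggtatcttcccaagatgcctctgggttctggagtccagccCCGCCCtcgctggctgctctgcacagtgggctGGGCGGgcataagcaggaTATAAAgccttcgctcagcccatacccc
Cat: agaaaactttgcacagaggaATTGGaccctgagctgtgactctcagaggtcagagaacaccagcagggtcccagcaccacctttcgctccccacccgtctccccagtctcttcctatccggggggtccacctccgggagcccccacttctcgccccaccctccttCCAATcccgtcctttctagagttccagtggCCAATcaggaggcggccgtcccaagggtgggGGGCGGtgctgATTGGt
Gpx1: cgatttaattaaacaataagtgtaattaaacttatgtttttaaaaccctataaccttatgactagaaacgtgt
The core was in 1 of the 8 windows and the GC box in 8 of 8. *Sod1* held 4 GC boxes, in overlapping pairs, beside the core, and *Cat* held 4 CCAAT boxes. *Gpx1* had no match in the stretch shown, and its window held 1 GC box after the start site. *Nqo1* had 2 GC boxes and a TATA box. A match is a string of letters, and its absence says nothing on binding elsewhere in the gene.

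The wider pathway was followed in 62 other genes, of which 60 were tested. None was called by edgeR's quasi-likelihood test (smallest FDR 0.200 with Benjamini-Hochberg adjustment). DESeq2 called *Cybb* and *Glo1* (3.43% of all genes were called), limma-voom *Glo1* and *Sephs2* (0.581%), edgeR on every gene with at least 1 count *Sephs2* (2.22%), and edgeR without *Notch3*-/- mouse 3 called 8. All were higher, as were 903 of the 936 genes called in the last fit (6.02% of those tested). At an unadjusted p under 0.05, 11 were higher and 2 lower, beside 7.34% and 3.05% of all genes tested. They had a median log2 fold change of 0.09, with 40 positive and 20 negative values. The *Notch3*-/- mice lay all above the control mice for 4 of them (*Pgd*, *Cybb*, *Sephs2* and *Eefsec*) and all below for 2 (*Idh2* and *Slc7a11*), beside 4.57% and 3.96% of all genes tested.

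Genes of selenoprotein synthesis and of glutathione synthesis, which supply glutathione peroxidases, had the highest list medians beside NADPH supply, and *Notch3*-/- mouse 2 was the farthest from the control mean in all 3. Its median log2 difference from that mean was 0.95 for selenoprotein synthesis, 0.99 for glutathione synthesis and 0.69 for NADPH supply, against 0.14, 0.08 and 0.24 in *Notch3*-/- mouse 1 and 0.11, -0.16 and 0.03 in *Notch3*-/- mouse 3. Without *Notch3*-/- mice 1 and 2 the median log2 fold changes were 0.10 for selenoprotein synthesis, -0.18 for glutathione synthesis and -0.002 for NADPH supply. The selenoprotein synthesis list had a median of 0.48 over 6 genes, 3 of them higher at an unadjusted p under 0.05. *Sephs2*, which makes selenophosphate, the selenium donor, averaged 55.8 ± 2.48 CPM (SD, n = 4) in control hearts, and *Notch3*-/- mice 1 to 3 had 127, 363 and 68.6 CPM. The log2 fold change of *Sephs2* was 1.74 (SE 0.44, edgeR FDR 0.200, Benjamini-Hochberg), and 0.30 without *Notch3*-/- mice 1 and 2. *Selenop*, a selenium carrier of plasma made chiefly in the liver and the gene of this list with the highest level per kb, reached 747, 1041 and 371 CPM in *Notch3*-/- mice 1 to 3, beside a control range of 418 to 521. *Eefsec*, the elongation factor for selenocysteine, had 27.1, 46.3 and 28.2 CPM in the *Notch3*-/- mice, all above the control range of 17.7 to 25.0. *Pstk*, the kinase that acts on the selenocysteine tRNA, had the lowest log2 fold change of the list, at -0.22. In the glutathione synthesis list, with a median of 0.39 over the 8 tested of 9 genes, *Gclc* and *Gclm*, the subunits of the enzyme that limits glutathione synthesis, had log2 fold changes of 1.60 (SE 0.55) and 1.03 (SE 0.45). *Gclc* was at 19.9, 48.0 and 5.86 CPM in *Notch3*-/- mice 1 to 3, against a control range of 7.01 to 9.06. *Gclm* was at 30.3, 76.4 and 20.8 CPM in these mice, with mice 1 and 3 within the control range of 11.9 to 33.1. *Glo1*, a glyoxalase and the highest per kb of that list, was at 401, 497 and 276 CPM in the same order, against 206 to 295 in control hearts. *Slc7a11*, which brings in cystine, was lowest in the list at -0.72 (SE 0.36), on counts of no more than 20 in any mouse. *Sephs2*, *Selenop*, *Gclc* and *Glo1* were high in *Notch3*-/- mice 1 and 2, in which the hepatocyte markers were high as well (the part of those markers was not tested), and without those mice *Gclc* had a log2 fold change of -0.46 and *Selenop* of -0.30.

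**Figure D4:**
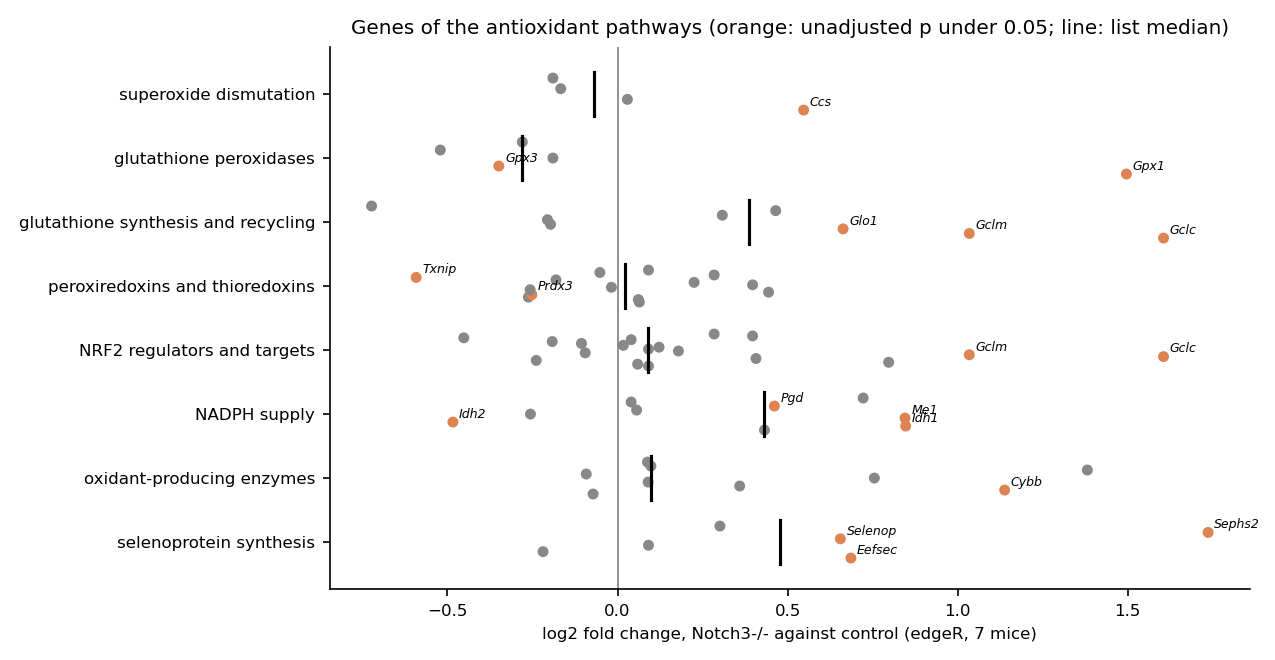
Log2 fold change of *Notch3*-/- against control hearts (edgeR, 7 mice) for each tested gene of 8 antioxidant pathway lists; orange points have an unadjusted p under 0.05, and a line marks the list median. Medians ran from -0.28 for the glutathione peroxidases to 0.48 for selenoprotein synthesis, beside -0.003 for all genes.

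The NADPH supply list had a median of 0.43 over 9 genes, 3 higher and 1 lower at an unadjusted p under 0.05, and one of -0.002 without *Notch3*-/- mice 1 and 2. *Idh2*, the mitochondrial NADP-dependent isocitrate dehydrogenase and the most abundant of the list per kb, averaged 1277 ± 154 CPM (SD, n = 4) in control hearts, and *Notch3*-/- mice 1 to 3 had 1042, 810 and 887 CPM, all below the control mice. Its log2 fold change was -0.48 (SE 0.13, edgeR FDR 0.206, Benjamini-Hochberg) and it was as large, at -0.52, without *Notch3*-/- mice 1 and 2. The other NADPH genes with an unadjusted p under 0.05 encode cytosolic enzymes and had positive values. *Idh1* was at 195, 376 and 133 CPM in *Notch3*-/- mice against 113 to 161 in control mice, and *Me1*, the malic enzyme, at 178, 524 and 168 against 136 to 174. *Pgd*, of the pentose phosphate pathway, lay above the control mice in all 3 *Notch3*-/- mice, at 130, 146 and 97.0 CPM against 84.7 to 94.5. Without *Notch3*-/- mice 1 and 2, *Idh1* had a log2 fold change of 0.03.

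Among the oxidant-producing enzymes (median 0.10 over 9 tested of 10), *Cybb*, the catalytic subunit of the NADPH oxidase of phagocytes, had 12.2, 5.90, 12.0 and 9.02 CPM in control mice 1 to 4 and 15.6, 21.2 and 27.2 CPM in *Notch3*-/- mice 1 to 3. The groups did not overlap, and *Notch3*-/- mouse 3 was the highest. Its log2 fold change was 1.14 (SE 0.31, edgeR FDR 0.210, Benjamini-Hochberg), and 1.49 without *Notch3*-/- mice 1 and 2. The 8 macrophage markers summed to 485 to 577 CPM in control mice and to 576, 543 and 624 CPM in *Notch3*-/- mice 1 to 3, and their part in this value was not tested. *Nox4*, the constitutive oxidase of the heart and vessels, had 32.6 CPM in *Notch3*-/- mouse 2 and 2.67 to 6.82 in all other mice. *Maob*, which oxidizes amines, was the most abundant of the list per kb and had 208 ± 36.8 CPM (SD, n = 4) in control and 221 ± 49.9 CPM (SD, n = 3) in *Notch3*-/- hearts.

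The remaining lists held few genes with an unadjusted p under 0.05. In the peroxiredoxin and thioredoxin list (median 0.02 over 14 genes) 2 were lower, *Prdx3* and *Txnip*, an inhibitor of thioredoxin, at 845 ± 253 CPM (SD, n = 4) in control and 560 ± 156 CPM (SD, n = 3) in *Notch3*-/- hearts, and *Prdx4*, of the endoplasmic reticulum, had the largest log2 fold change at 0.44. The NRF2 list had a median of 0.09 over 18 genes. Apart from *Gclc* and *Gclm*, which were higher, none passed an unadjusted p of 0.05, *Nqo1* had its lowest log2 fold change and *Fth1*, the ferritin heavy chain, its highest level per kb, at 688 ± 107 CPM (SD, n = 4) in control and 583 ± 81.8 CPM (SD, n = 3) in *Notch3*-/- hearts. In the superoxide dismutation list (median -0.07 over 4 genes) *Ccs*, the copper chaperone of *Sod1*, was at 45.9, 64.8 and 30.6 CPM in *Notch3*-/- mice 1 to 3, against a narrow control range of 31.3 to 33.5. The glutathione peroxidases had a median of -0.28 over 5 genes. *Gpx4*, which reduces lipid peroxides, was the most abundant per kb, with a log2 fold change of -0.19 (SE 0.12), and *Gpx7* had the lowest log2 fold change, at -0.52 (SE 0.29). *Gpx1* alone of the 5 had a positive fold change.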

How the data were processed

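Hearts of 4 control and 3 *Notch3*-/- mice were sequenced after 22 cycles of cDNA amplification and Tn5 fragmentation, in 3 technical libraries a mouse. The authors deposited whole-number read counts per Ensembl gene and library, without normalization. The submitters' processing notes name mm10 and CASAVA. The aligner, the counting program, its strand setting and the treatment of duplicate or multiply mapped reads are not given in the sources used here, so that counts of any gene may hold reads of genes that overlap it. The reads carry no molecular identifiers. The table's 92 ERCC lines, with 34 counts in all libraries together, were left out. Symbols, coordinates and exon lengths came from GENCODE vM21 (46005 of 46517 identifiers matched), and promoter sequence from RefSeq.

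Technical libraries were summed per mouse. Genotypes were compared in R 4.3.3 with edgeR 4.0.16 (filterByExpr, TMM, quasi-likelihood F-test, genotype only), with Benjamini-Hochberg adjustment over all 14324 genes tested. DESeq2 1.42.0, limma 3.58.1 (voom, mouse as random effect), other filters and scalings, single technical libraries, thinned counts and each mouse left out were alternatives. Limma-voom used a within-mouse correlation shared by all genes (0.152, or 0.145 with a technical replicate block). The edgeR and DESeq2 fits were tested on simulated data. Members and lists were chosen with earlier results of these data known. Genes named are drawn from the members, *Notch3*, genes overlapping them, in each pathway list the most abundant per kb in control hearts, the highest and lowest log2 fold change and those with an unadjusted p under 0.05, and in each marker list the most abundant gene of each genotype. *Myh11* and *Col1a1* fall outside this rule and were chosen after their values were seen. Ages came from the study's text.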

Additional observations from a re-analysis of the deposited data

Results flagged for a closer look

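Dixon's ratio was taken over the 4 control mice for 64 sets of values, the CPM of each gene named with values and the summed CPM of each list. In 3 of them 1 mouse was far from the other 3, where chance gives about 1 in 20. The summed adipocyte list had 11.7 CPM in control mouse 4 and 0.24 to 1.90 CPM in the other control mice. *Lep*, of that list, had 3.67 CPM in control mouse 4 and 0 counts in the others. *Col1a1* had 167 CPM in control mouse 1 and 126 to 127 CPM in the others. None of the 10 antioxidant genes had a control mouse set apart in this way.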

How the results depend on the processing

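Of 200 log2 fold changes of the 10 genes under alternatives, 172 kept sign and side of the threshold, 5 passed it (all *Gpx1*) and 23 changed sign. The cause was not tested. EdgeR with the filter on low counts and all mice called *Notch3* alone. DESeq2 called 597 genes, edgeR on every gene with at least 1 count 639, limma-voom on 21 libraries 65 and the same with a technical replicate block 62, and each called 1 of the 10 genes. Leaving out 1 mouse gave 1 to 936 called genes, 0 to 1 of the 10 called, 1 to 4 with an unadjusted p under 0.05 (6.51% to 16.3% of all genes tested), 1 to 5 whose genotypes did not overlap (12.2% to 24.4%), and a median log2 fold change of -0.187 to -0.051. The highest counts came without *Notch3*-/- mouse 3. In turn, *Sod1* stood at -0.03, -0.002 and -0.003 without control mice 2, 3 and 4, and at -0.01 and -0.063 without *Notch3*-/- mice 1 and 2. *Hmox1* ran from -0.054 (without control mouse 3) to 0.242 (without *Notch3*-/- mouse 1) and was at -0.016 without *Notch3*-/- mouse 2, where *Txnrd2* was at 0.057.

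With only the 5 mice whose labels start with k, 0 genes were called, 1 of the 10 had an unadjusted p under 0.05 (6.38% of all genes) and 4 did not overlap (23.0%). Without *Notch3*-/- mice 1 and 2 together, 0 of the 10 had an unadjusted p under 0.05 (5.16%), 2 did not overlap (41.2%) and the median was -0.023, with *Sod1* at -0.245, *Sod3* at 0.05 and *Txnrd2* at 0.14. With the hepatocyte covariate, 0 genes were called, 0 of the 10 had such a p (4.37%) and the median was -0.024, with *Sod1* at -0.29, *Sod3* at 0.067, *Cat* at -0.13, *Gpx1* at -0.23, *Gpx3* at 0.066 and *Txnrd2* at 0.14. With technical library 1, 2 or 3 alone, 48, 39 and 77 genes were called, 1, 5 and 2 of the 10 had such a p (6.61%, 10.4% and 8.83% of all genes), 0, 2 and 0 did not overlap (6.29%, 8.59% and 7.44%), and medians were 0.058, -0.16 and -0.17. In library 1 *Sod3* was at 0.20, *Gpx3* at 0.012 and *Prdx3* at 0.016. In library 2 *Sod1* was at -0.14 and *Hmox1* at -0.092, and in library 3 *Hmox1* at -0.13. With counts thinned to the smallest mouse total, 3 of the 10 did not overlap (7.68% of all genes). CPM without TMM factors, chosen after seeing the data, left 1 (8.34%), beside 8.53% of all genes with TMM. At full depth, without thinning, *Hmox1* had 55 to 111 counts a mouse.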
